A study of Mus musculus with 24 samples.

Results

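The proneural and Olig genes are a family of developmental regulators, and 9 of them were followed through this cRNA-seq experiment: Neurog1, Neurog2, Neurog3, Neurod1, Neurod2, Atoh1, Olig1, Olig2 and Olig3. They were taken by gene symbol from the 20633 genes of the deposited table, where each symbol has 1 row. cRNA-seq is RNA-seq calibrated with a spike-in, here Drosophila SG4 cells added to the mouse cells before RNA was extracted. There were 12 libraries of total RNA from mouse embryonic stem cells (ESCs) of the strain E14, with 3 biological replicates in each of 4 conditions.

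PRC1CKO cells have the genotype Ring1a-/-; Ring1bfl/fl; Rosa26::ERT2-Cre, and the line is clone B9. PRC1CPM cells carry Ring1aI50A/D53K together with a floxed Ring1b(WT->I53A/D56K) that OHT switches, and the same Rosa26::ERT2-Cre, and the line is clone 41. Both lines express a tamoxifen-inducible Cre recombinase from the Rosa26 locus, and both carry a constitutive change of Ring1a that the untreated controls share. Each line was sampled untreated and after 72 h with 800 nM 4-hydroxytamoxifen (OHT). OHT removes RING1B from PRC1CKO cells, and in PRC1CPM cells it replaces the wild-type exon of Ring1b with an exon that encodes a catalytic mutant. The comparisons therefore ask how these genes respond to loss of the Polycomb complex PRC1 and to loss of its catalytic activity. Each line is 1 clone, so line and clone cannot be told apart.

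Basic helix-loop-helix (bHLH) factors bind short DNA motifs called E-boxes as dimers, usually with a widely expressed E protein. The neurogenins (Neurog1 to Neurog3) and Atoh1 act early, when a progenitor is set on a neuronal, sensory or endocrine path, and the NeuroD factors act later, as those cells differentiate. The Olig factors pattern the ventral and dorsal neural tube, and Olig1 and Olig2 are best known for specifying oligodendrocytes. In ESCs the genes of such lineage regulators are classical targets of the Polycomb system and are nearly silent.

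All positions are on mm10 (GRCm38), with exons from its RefSeq annotation. Neurog1 (chr13:56250498-56252163, minus strand), Atoh1 (chr6:64729146-64731235), Olig1 (chr16:91269769-91271939) and Olig3 (chr10:19356539-19358604) have 1 exon. Neurog2 (chr3:127633145-127635631), Neurog3 (chr10:62133090-62134763), Neurod1 (chr2:79452641-79456636, minus strand), Neurod2 (chr11:98325417-98329645, minus strand) and Olig2 (chr16:91225550-91228677) have 2 exons. In each of the 9 genes the coding sequence lies in 1 exon. Olig2 and Olig1 are neighbours on chromosome 16, with 41.1 kb between them. The last bases of Olig2 overlap a gene on the other strand, Gm52261, from position 91228579, and the strand setting of the counting is not given in the sources used here, so reads in that overlap cannot be told apart.

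The promoters of these genes are shown because Polycomb complexes in mammals are drawn to CpG-rich DNA. Upstream sequence from RefSeq (GRCm38.p6) was matched for 8 of the 9 genes. The 250 bases before the RefSeq start site, which lies 17 bases from the start in the deposited table for Neurog1 and 21 for Atoh1, are printed below for Olig2, Neurog1 and Atoh1, which rose in PRC1CKO cells, and for Neurod1, which was not called in either line. Each is written 5' to 3' on the strand of the gene, and capitals mark every CG dinucleotide.
Olig2, chr16:91225300-91225549, plus strand: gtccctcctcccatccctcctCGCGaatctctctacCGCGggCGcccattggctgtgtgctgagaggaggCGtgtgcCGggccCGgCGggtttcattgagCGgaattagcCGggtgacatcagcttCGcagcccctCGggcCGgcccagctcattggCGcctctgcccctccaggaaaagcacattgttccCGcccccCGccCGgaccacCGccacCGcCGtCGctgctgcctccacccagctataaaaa
Neurog1, chr13:56252181-56252430, minus strand: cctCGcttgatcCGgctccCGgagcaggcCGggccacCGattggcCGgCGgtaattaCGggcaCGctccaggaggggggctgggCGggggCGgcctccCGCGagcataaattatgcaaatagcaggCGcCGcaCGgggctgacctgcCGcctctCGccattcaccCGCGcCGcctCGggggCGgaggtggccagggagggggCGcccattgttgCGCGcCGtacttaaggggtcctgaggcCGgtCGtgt
Atoh1, chr6:64728875-64729124, plus strand: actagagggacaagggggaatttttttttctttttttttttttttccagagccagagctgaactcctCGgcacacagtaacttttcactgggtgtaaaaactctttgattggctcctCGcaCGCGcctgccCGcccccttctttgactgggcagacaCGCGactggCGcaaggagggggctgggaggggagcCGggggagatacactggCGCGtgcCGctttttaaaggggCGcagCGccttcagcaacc
Neurod1, chr2:79456637-79456886, minus strand: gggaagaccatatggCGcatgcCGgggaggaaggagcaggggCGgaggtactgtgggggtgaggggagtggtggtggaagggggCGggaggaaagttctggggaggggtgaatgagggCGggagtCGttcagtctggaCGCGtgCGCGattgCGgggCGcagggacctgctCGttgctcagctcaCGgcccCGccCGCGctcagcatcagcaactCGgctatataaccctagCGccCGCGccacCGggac
The Olig2 and Neurod1 windows each hold 22 CG dinucleotides, although Olig2 rose and Neurod1 was not called. The Neurog1 window holds 29, the most of the 8, and the Olig3 window holds 4, the fewest. Across 32851 promoters of the same length the median was 6, 92.1% held at least 1 CG, and 7 of the 8 genes lay above the median. The E-box letters CANNTG, which read the same on both strands and can include a CG, were found in 4 of the 8 windows (Neurog3, Neurod1, Neurod2 and Olig3) and in 66.2% of all promoters. These are matches of letters and describe these windows only.

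Values below are normalised read counts, that is, reads on the gene body divided by a size factor that the authors derived from the Drosophila reads and corrected with matched genomic DNA libraries. Library depth ranged from 14668159 to 27016156 reads on genes, and 1 read was worth between 0.770 and 1.49 normalised counts. The reads behind the 9 genes are few, so both scales are given. Low counts were mostly even: of all values from 1 to 20 reads, 80.2% were even, against 52.4% of values from 1000 to 2000 reads. Counting intervals for these genes were therefore computed on reads halved and rounded up. They cover counting error only.

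In PRC1CKO cells, OHT treatment raised Olig2, Neurog1, Atoh1 and Neurog2, and in PRC1CPM cells it raised Olig2, Atoh1, Neurog2 and Olig3. Genes were tested with limma on log2(normalised read count + 1) in the 16940 genes that reached 10 reads in 3 or more libraries, and were called at a Benjamini-Hochberg adjusted p under 0.05 with a fold change above 1.5. Of the 9 genes, 8 were tested and Neurod2 fell under the filter. Neurog1, Neurog2, Atoh1, Olig2 and Olig3 reached 10 reads in OHT-treated libraries alone, so they could only enter the test by being high there. With limma, 4 of the 9 were called higher in PRC1CKO cells, where 16.5% of all tested genes were called higher and 3.09% lower. In PRC1CPM cells 4 of the 9 were called higher, where 13.1% of all tested genes were called higher and 1.4% lower. None of the 9 was called lower in either line. With TMM scaling in place of the spike-in, the share of calls that were higher over all tested genes was 71.5% in place of 84.2% in PRC1CKO and 80.1% in place of 90.4% in PRC1CPM cells. Over all tested genes the log2 fold change had a median of 0.12 in PRC1CKO and 0.10 in PRC1CPM cells, and of -0.0019 and -0.0072 with TMM.

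**Figure D1:**
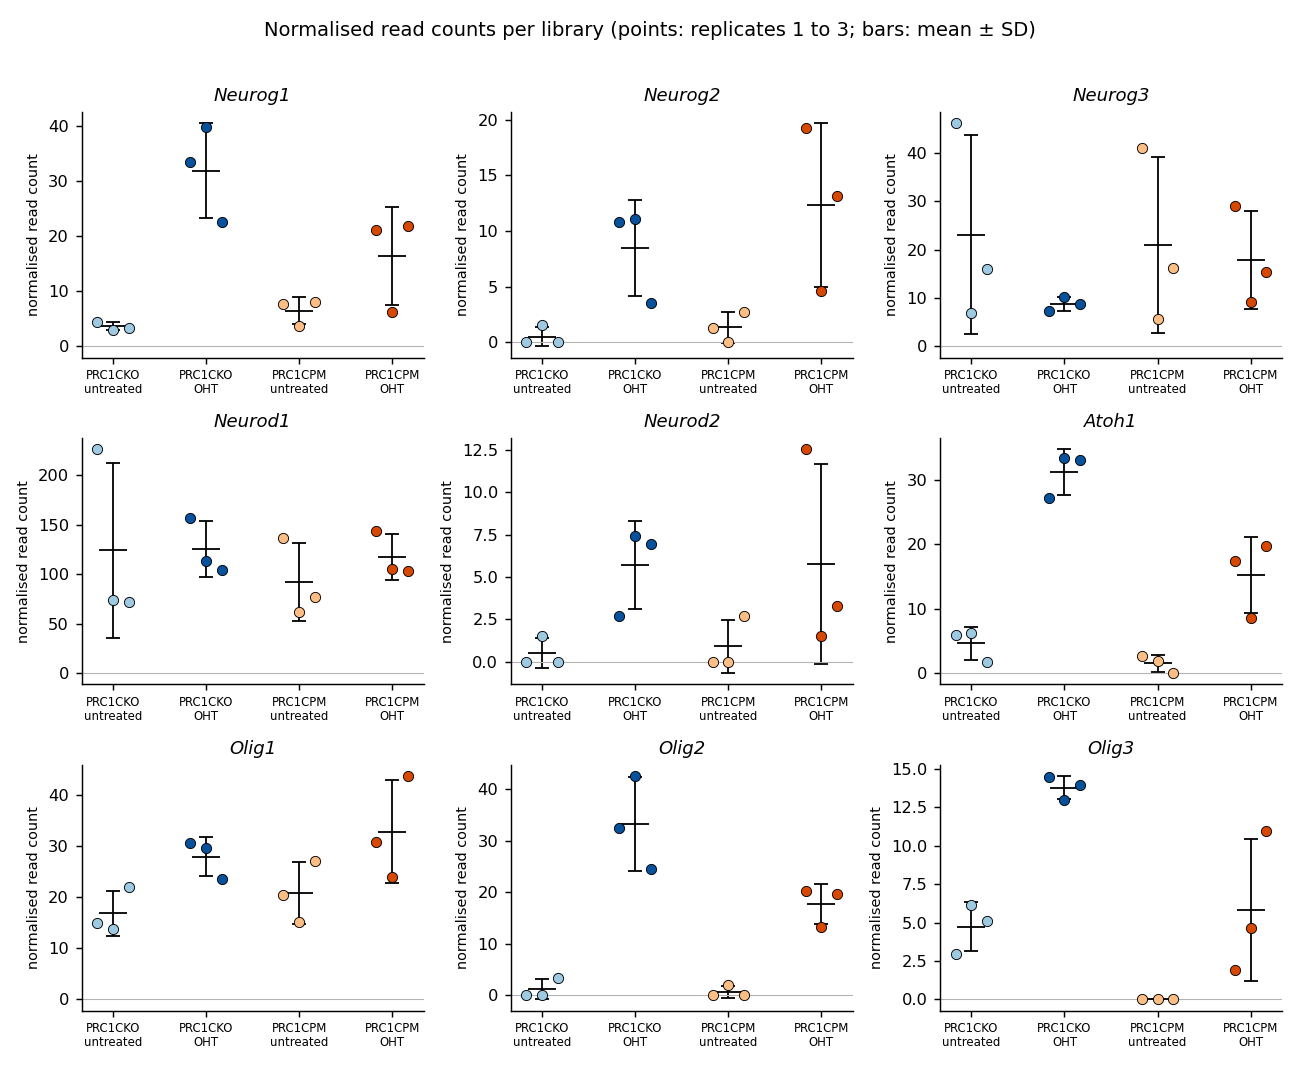
Normalised read counts of the 9 genes in each library, with 1 panel per gene and its own vertical axis. Points are replicates 1 to 3 from left to right, and the bars give the mean and SD (n = 3). The 3 OHT-treated PRC1CKO libraries lie above the 3 untreated ones in every panel but Neurog3 and Neurod1.

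The level in every OHT-treated library lay above that in every untreated library for 7 of the 9 genes in PRC1CKO cells, the exceptions being Neurog3 and Neurod1. Among all tested genes 22.1% were separated in this way. The 2 shares rest on unlike sets, since the 7 include Neurod2, which was not tested. Neurog1, Neurog2, Atoh1, Olig2 and Olig3 entered the test only through OHT-treated libraries, which favours such separation in these genes. In PRC1CPM cells 4 of the 9 were so separated (Olig2, Atoh1, Neurog2 and Olig3), against 18.7% of all tested genes.

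Olig2, the ventral neural tube factor needed for motor neurons and oligodendrocytes, had the largest log2 fold change of the 9 in both lines. Its normalised read counts in untreated PRC1CKO replicates 1 to 3 were 0, 0 and 3.38, and after OHT treatment they were 32.5, 42.6 and 24.4. In PRC1CPM cells they were 0, 1.88 and 0 untreated, and 20.3, 13.1 and 19.7 after OHT treatment. Olig2 was thus at or next to 0 in all 6 untreated libraries and well above it in all 6 treated ones. Its log2 fold change was 4.35 ± 0.71 (SE) in PRC1CKO cells (limma adjusted p = 2.74e-06) and 3.69 ± 0.71 in PRC1CPM cells (adjusted p = 9.06e-05). The untreated groups hold only 4 and 2 reads in total, against 110 and 56 after OHT treatment. The ratio of summed reads, scaled by size factors, was 26.0 in PRC1CKO cells (95% counting interval 6.87 to 220.2) and 22.3 in PRC1CPM cells (3.83 to 942.8). The size of the fold change rests on the pseudocount: with 0.1 in place of 1 the log2 fold changes were 6.63 and 6.01.

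Atoh1, which specifies cerebellar granule cells and the hair cells of the inner ear, rose in both lines. It had 5.96, 6.16 and 1.69 normalised counts in untreated PRC1CKO replicates and 27.1, 33.3 and 33.1 after OHT treatment. The PRC1CPM replicates had 2.56, 1.88 and 0 untreated and 17.4, 8.50 and 19.7 after treatment. Treated and untreated libraries did not overlap in either line. On the log2 scale the rise was 2.65 ± 0.64 (SE) in PRC1CKO cells (limma adjusted p = 0.00136) and 2.82 ± 0.64 in PRC1CPM cells (adjusted p = 0.000923). Both calls were kept in all 24 alternatives tried.

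Neurog1, a determination gene of sensory ganglia and inner ear neurons, rose in PRC1CKO cells. It had 4.47, 3.08 and 3.38 normalised counts in untreated PRC1CKO replicates and 33.4, 39.8 and 22.7 after OHT treatment, with no overlap. Its log2 fold change there was 2.80 ± 0.59 (SE; limma adjusted p = 0.000195). In PRC1CPM cells it had 7.67, 3.77 and 8.13 normalised counts untreated and 21.2, 6.19 and 21.9 after treatment. Replicate 2 of the treated PRC1CPM cells lay within the untreated range. Each treated PRC1CPM replicate was nevertheless above the untreated one of the same number. The log2 fold change in PRC1CPM cells was 1.09 ± 0.59 with a 95% interval from -0.09 to 2.27, which did not pass the test (adjusted p = 0.273).

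Neurog2, which drives glutamatergic neuron fate in the cortex and also acts in the spinal cord and sensory ganglia, rose from fewer reads in both lines. It had 0, 1.54 and 0 normalised counts in untreated PRC1CKO replicates and 10.8, 11.1 and 3.49 after OHT treatment. In PRC1CPM cells it had 1.28, 0 and 2.71 untreated and 19.3, 4.64 and 13.1 after treatment. The groups did not overlap, but the treated replicates differed by several fold among themselves. The log2 fold change was 2.66 ± 0.80 (SE) in PRC1CKO cells (limma adjusted p = 0.0108) and 2.53 ± 0.80 in PRC1CPM cells (adjusted p = 0.0215). The ratio of summed reads was 13.2 (95% counting interval 2.02 to 560.1) in PRC1CKO and 10.1 (1.82 to 67.0) in PRC1CPM cells. These calls depend on single libraries: without OHT-treated replicate 1, OHT-treated replicate 2 or untreated replicate 3 of the PRC1CKO cells the adjusted p was 0.0658, 0.0651 or 0.0506, and without OHT-treated replicate 1, OHT-treated replicate 3 or untreated replicate 2 of the PRC1CPM cells it was 0.170, 0.0883 or 0.115. The PRC1CPM call was also lost with no filter (adjusted p = 0.0537) and with a pseudocount of 0.1 (adjusted p = 0.115).

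Olig3, a factor of dorsal neural tube progenitors, was called higher only in PRC1CPM cells. It was at 0 in all 3 untreated PRC1CPM libraries and had 1.93, 4.64 and 10.95 normalised counts after OHT treatment. The treated libraries hold 18 reads in total against 0, and the 95% counting interval of the ratio starts at 1.57-fold and has no upper limit. In PRC1CKO cells it had 2.98, 6.16 and 5.07 normalised counts untreated and 14.5, 13.0 and 14.0 after treatment, with no overlap. The fitted log2 fold change, which depends on the pseudocount, was 2.54 ± 0.74 (SE) in PRC1CPM cells (limma adjusted p = 0.0114) and 1.41 ± 0.74 in PRC1CKO cells (adjusted p = 0.21). The PRC1CPM call was lost without OHT-treated replicate 3 (adjusted p = 0.140) and when PRC1CPM libraries were fitted alone (adjusted p = 0.0587).

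Olig1, the oligodendrocyte factor beside Olig2, had a level above 0 in every library. It had 14.9, 13.9 and 22.0 normalised counts in untreated PRC1CKO replicates and 30.7, 29.6 and 23.6 after OHT treatment. Its PRC1CPM counts were 20.5, 15.1 and 27.1 untreated and 30.9, 24.0 and 43.8 after treatment. The PRC1CKO groups did not overlap and the PRC1CPM groups did, although each treated PRC1CPM replicate was above the untreated one of the same number. Fitted log2 fold changes were 0.71 ± 0.46 (SE; limma adjusted p = 0.35) and 0.63 ± 0.46 (adjusted p = 0.512), with 95% intervals from -0.22 to 1.64 and from -0.30 to 1.56. Olig2, 41.1 kb away, therefore had a log2 fold change of 4.35 beside 0.71 for Olig1 in PRC1CKO cells, and the difference between the 2 genes was not tested.

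Neurod1, a differentiation factor of neurons and of islet cells, had the highest level of the 9 per length in all 4 conditions and was not called. It had 226.4, 73.9 and 71.9 normalised counts in untreated PRC1CKO replicates and 157.3, 113.9 and 104.7 after OHT treatment. In PRC1CPM cells it had 136.8, 62.2 and 77.3 untreated and 143.8, 105.2 and 103.0 after treatment. Replicate 1 of the untreated cells stood above the other untreated replicates in both lines. In PRC1CPM cells each treated replicate was above the untreated one of the same number, and in PRC1CKO cells 2 of 3 were. How often all 3 pairs rise among all tested genes was not computed. The log2 fold change was 0.21 ± 0.37 (SE; limma adjusted p = 0.794) in PRC1CKO and 0.41 ± 0.37 (adjusted p = 0.63) in PRC1CPM cells, with 95% intervals from -0.52 to 0.94 and from -0.32 to 1.14.

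Neurog3, the gene that sets pancreatic progenitors on the endocrine path, was also not called. It had 46.2, 6.93 and 16.1 normalised counts in untreated PRC1CKO replicates and 7.23, 10.2 and 8.72 after OHT treatment. In PRC1CPM cells it had 40.9, 5.65 and 16.3 untreated and 29.0, 9.28 and 15.3 after treatment. Replicate 1 was again the highest untreated library of each line, and treated and untreated libraries overlapped in both. Only 1 of 3 treated replicates in each line was above the untreated one of the same number. The log2 fold change was -0.94 ± 0.61 (SE; limma adjusted p = 0.342) in PRC1CKO cells and 0.02 ± 0.61 (adjusted p = 0.994) in PRC1CPM cells. The latter had a negative sign with DESeq2, edgeR and TMM.

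Neurod2, which acts in maturing cortical neurons, was not tested because too few libraries reached 10 reads. It had 0, 1.54 and 0 normalised counts in untreated PRC1CKO replicates and 2.71, 7.40 and 6.98 after OHT treatment. In PRC1CPM cells it had 0, 0 and 2.71 untreated and 12.5, 1.55 and 3.29 after treatment. Each untreated group holds 2 reads, and the ratio of summed reads was 8.99 in PRC1CKO (95% counting interval 1.35 to 410.6) and 7.16 in PRC1CPM cells (1.13 to 345.5). Without the filter its log2 fold changes of 2.21 and 1.77 did not pass the test (limma adjusted p = 0.0984 and 0.228).

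**Figure D2:**
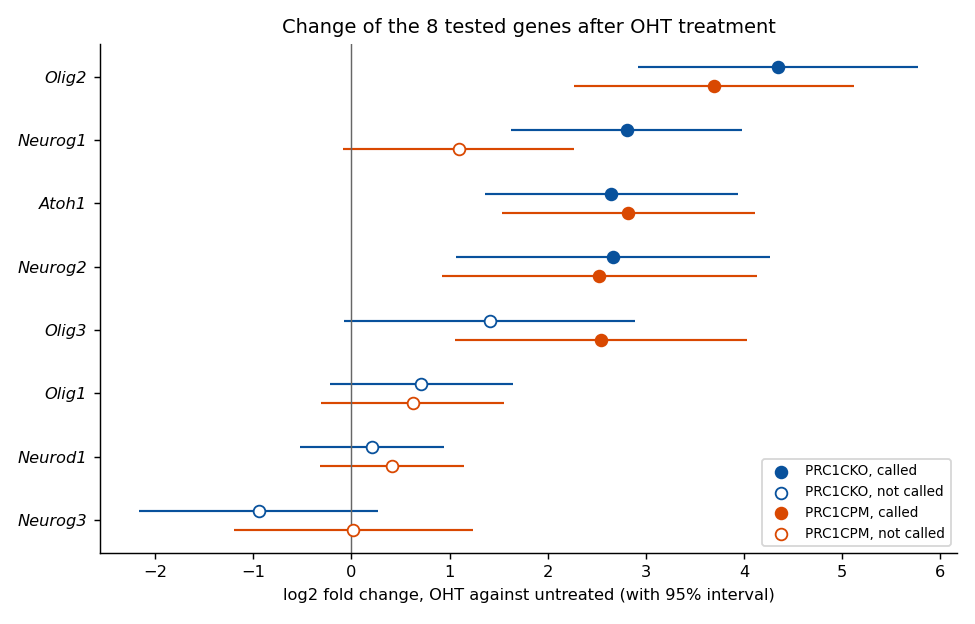
Log2 fold change after OHT treatment of the 8 tested genes, with PRC1CKO in blue and PRC1CPM in orange. Lines are 95% intervals and filled points passed the test. Olig2, Atoh1 and Neurog2 are filled in both lines, Neurog1 only in PRC1CKO and Olig3 only in PRC1CPM.

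The order of the 9 genes by level changed with treatment. Levels were compared per kb of gene body, as normalised read counts divided by the length in the table. In untreated PRC1CKO cells Neurod1 stood first (31.0 ± 22.2 per kb, SD, n = 3), followed by Neurog3 (13.8 ± 12.3) and Olig1 (7.79 ± 2.04). Olig3, Atoh1 and Neurog1 came next at 2.29, 2.20 and 2.19 per kb, and Olig2, Neurog2 and Neurod2 came last at 0.360, 0.206 and 0.121 per kb. The ranges of neighbours in this order overlapped, except between Olig1 and Olig3 and between Neurog1 and Olig2.

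After OHT treatment of PRC1CKO cells Neurod1 still stood first (31.3 ± 7.03 per kb, SD, n = 3), and Neurog1 (19.2 ± 5.19), Atoh1 (14.9 ± 1.69), Olig1 (12.9 ± 1.78) and Olig2 (10.6 ± 2.91) followed with ranges that overlapped from each to the next. Olig3, Neurog3, Neurog2 and Neurod2 had the lower levels, 6.68, 5.20, 3.41 and 1.35 per kb. Neurog1 thus moved from the sixth to the second place and Olig2 from the seventh to the fifth.

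In untreated PRC1CPM cells the order began with Neurod1 (23.0 ± 9.87 per kb, SD, n = 3), Neurog3 (12.5 ± 10.8) and Olig1 (9.62 ± 2.78), and Olig3 was at 0. After OHT treatment it ran Neurod1 (29.4 ± 5.75), Olig1 (15.2 ± 4.64), Neurog3 (10.7 ± 6.02), Neurog1 (9.87 ± 5.34), Atoh1 (7.27 ± 2.83), Olig2 (5.66 ± 1.27), Neurog2 (4.97 ± 2.96), Olig3 (2.83 ± 2.24) and Neurod2 (1.37 ± 1.40). Below Neurod1 every neighbouring range in that order overlapped.

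**Figure D3:**
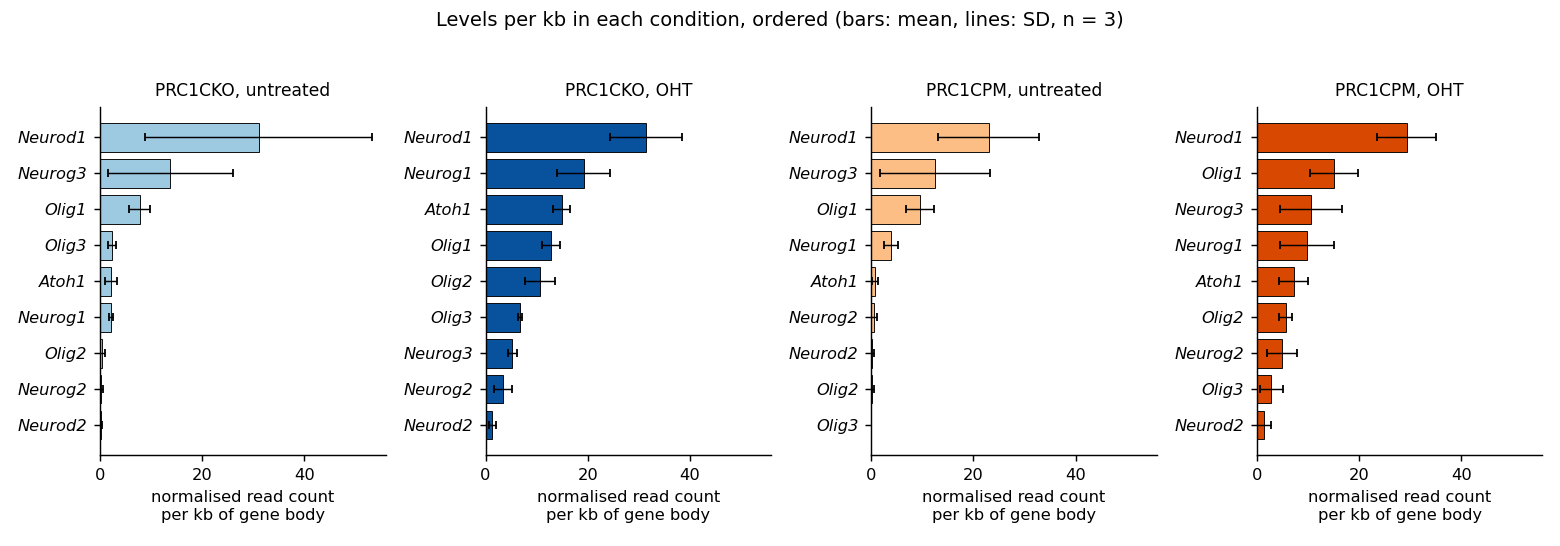
Levels of the 9 genes per kb of gene body in each condition, ordered from the highest. Bars are means and lines are SDs of 3 libraries. Neurod1 heads all 4 panels. Neurog1, Atoh1 and Olig2 stand higher in the order with OHT in PRC1CKO cells, whereas in PRC1CPM cells Neurog1 and Atoh1 keep their places.

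The treated lines were compared with each other to ask whether loss of catalysis gave the same levels as loss of the complex. With limma no member was called between OHT-treated PRC1CPM and OHT-treated PRC1CKO cells, and 1.47% of all tested genes were. At an unadjusted p under 0.05 the count was also 0, and edgeR and DESeq2 called 0 of them. In 4 of the 9 genes, Neurog1, Atoh1, Olig2 and Olig3, every OHT-treated PRC1CPM library was nevertheless below every OHT-treated PRC1CKO library, which held for 4.35% of all tested genes. Their log2 differences (PRC1CPM over PRC1CKO) were -1.06 for Neurog1, -1.06 for Atoh1, -0.86 for Olig2 and -1.34 for Olig3. The 95% interval was -2.24 to 0.12 for Neurog1, -2.35 to 0.23 for Atoh1, -2.28 to 0.57 for Olig2 and -2.83 to 0.14 for Olig3, so these data do not show equal levels. Neurog3 differed the other way, by 0.83, with an interval from -0.39 to 2.05. Between the untreated lines the log2 differences were 0.65 for Neurog1, -1.24 for Atoh1, -0.20 for Olig2 and -2.48 for Olig3, none of them called. The fitted levels of Atoh1 and Olig3 were thus lower in PRC1CPM cells before treatment as well. The part of this baseline in the treated differences was not tested.

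Markers of other cell types were called in the same comparison. Of 8 primitive endoderm markers tested, 2 were called lower in OHT-treated PRC1CPM cells, and of 6 fibroblast markers 1 was called higher. Gata6 had 327.7 ± 103.2 (SD, n = 3) normalised counts there against 1102 ± 232 in OHT-treated PRC1CKO cells (log2 difference -1.78, limma adjusted p = 0.000388), a call lost with no filter (0.152). Pdgfra, which marks both primitive endoderm and oligodendrocyte precursors, had 548.7 ± 129.0 against 1128 ± 250 (-1.04, adjusted p = 0.0458). The Pdgfra call was lost without OHT-treated PRC1CKO replicate 1, 2 or 3 (0.206, 0.121 and 0.0529), without OHT-treated PRC1CPM replicate 2 or 3 (0.161 and 0.0908), with no filter (0.377), with a pseudocount of 0.1 (0.0854) and without the gDNA-seq correction (0.068). Col1a1, a collagen gene named here after its values were seen, had 6584 ± 4847 against 2076 ± 387 (1.44, adjusted p = 0.0203). That call was lost without OHT-treated PRC1CPM replicate 1 (log2 difference 0.87, adjusted p = 0.416), with DESeq2 (0.286), TMM (0.0696), no filter (0.574) and a pseudocount of 0.1 (0.095). The part of these cells in the lower levels of the 4 bHLH genes was not tested.

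The untreated lines differed in Olig3 alone by separation of the libraries. All 3 untreated PRC1CPM libraries were at 0, below the 3 untreated PRC1CKO libraries at 2.98 to 6.16 normalised counts, and 2.55% of all tested genes were separated in this direction. The log2 difference of -2.48 ± 0.74 (SE) just missed the threshold (limma adjusted p = 0.0527), and no member was called, beside 2.69% of all tested genes. At an unadjusted p under 0.05 the count was 1, Olig3 itself, and edgeR and DESeq2 called 0. With the replicate number as a block it passed (adjusted p = 0.0185). It also passed with TMM (0.0175), with no filter (0.0457), with a pseudocount of 0.1 (0.0156), without untreated PRC1CKO replicate 1 (0.0251) and without OHT-treated PRC1CPM replicate 1 (0.0464), and it reached 0.233 without untreated PRC1CKO replicate 2. Neurog1 stood at the other end of the range, 0.65 higher in untreated PRC1CPM cells (adjusted p = 0.77).

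The interaction of line and treatment asks whether the response to OHT differed between the lines. With limma none of the 9 genes passed an adjusted p of 0.05, and 0.0236% of all tested genes did. At an unadjusted p under 0.05 the count was 1, and edgeR and DESeq2 called 0. That gene was Neurog1, whose response was lower by 1.71 on the log2 scale in PRC1CPM cells (95% interval -3.38 to -0.04, adjusted p = 0.9999). At the other end, the interaction of Olig3 was 1.13 (-0.96 to 3.23). The calls of Neurog1 in 1 line and of Olig3 in the other are therefore not shown to differ between the lines. With the replicate block all tested genes gave 324 interactions in place of 4, 1363 differences between treated lines in place of 249 and 1884 between untreated lines in place of 455.

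Other bHLH genes of neural, retinal and sensory lineages rose with OHT treatment as well. Of 12 such genes 7 were tested, and 6 were called higher in PRC1CKO and 3 in PRC1CPM cells, none lower, with median log2 fold changes of 2.49 and 1.32. Counts of this and of each later list stand beside 16.5% called higher and 3.09% lower of all tested genes in PRC1CKO and 13.1% and 1.4% in PRC1CPM cells. Bhlhe22, which acts in spinal and cortical neurons, went from 10.7 to 43.9 normalised counts on average in PRC1CKO cells (log2 fold change 2.06, limma adjusted p = 0.0024). Bhlhe23, a retinal factor, went from 5.26 to 23.5 (2.56, adjusted p = 0.00241). In PRC1CPM cells Bhlhe22 passed the test (2.08), although not without untreated replicate 3 (adjusted p = 0.069), while Bhlhe23 (1.14) did not pass it. The PRC1CKO call of Bhlhe23 was lost with no filter (0.0525). Of the 12, 10 had under 10 reads in every untreated PRC1CKO library and could enter the test there only by being high after treatment or in PRC1CPM cells. Neurod6 and Ferd3l were at 0 in all 12 libraries.

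The dimer partners were abundant throughout. Tcf3 and Tcf4, which encode the E proteins E2A and E2-2, had log2 fold changes of -0.0021 and -0.34 in PRC1CKO cells and -0.02 and -0.27 in PRC1CPM cells and did not pass the test in either line. Tcf12, which encodes HEB, rose from 2582 to 4545 normalised counts in PRC1CKO cells (log2 fold change 0.86, limma adjusted p = 0.00312) and from 2410 to 3765 in PRC1CPM cells (0.68, adjusted p = 0.0298). The PRC1CKO call of Tcf12 was lost without untreated replicate 3 (adjusted p = 0.101). The PRC1CPM call was lost without OHT-treated replicate 1, OHT-treated replicate 2 or untreated replicate 3 (adjusted p = 0.138, 0.0685 and 0.392), and with DESeq2 (0.0721) or TMM (0.0884). With no filter both calls were lost (0.0777 and 0.197). The median log2 fold changes of the 3 genes were -0.0021 and -0.02.

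Of the antagonists, 1 gene, Id2, was called, in PRC1CPM cells. HES and HEY proteins repress proneural genes downstream of Notch, and ID proteins bind E proteins without binding DNA. Of 12 such genes 11 were tested. Id2 had 404.5 normalised counts on average in untreated and 720.0 in OHT-treated PRC1CPM cells (log2 fold change 0.86, limma adjusted p = 0.0209), against -0.38 in PRC1CKO cells. The interaction of line and treatment for Id2 was 1.24 and did not pass the test (adjusted p = 0.653), although it did with the replicate number as a block (1.36e-05) and with the block and TMM (0.00725). The Id2 call in PRC1CPM cells was lost without untreated replicate 2 or 3 (adjusted p = 0.176 and 0.0579) or without OHT-treated replicate 1 or 3 (0.132 and 0.0548), and with no filter (0.155). Over the 11 tested antagonists the median on the log2 scale was 0.24 in PRC1CKO and 0.46 in PRC1CPM cells.

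Genes described as direct targets of proneural factors were called in both directions. Of 18, 17 were tested, 4 were called higher and 1 lower in PRC1CKO cells, and 4 higher and 2 lower in PRC1CPM cells, with median log2 fold changes of 0.50 and 0.36. Of all tested genes 16.5% were called higher and 3.09% lower in PRC1CKO cells, and 13.1% and 1.4% in PRC1CPM cells. Ebf3, a factor of neuronal differentiation, rose from 19.99 to 908.4 normalised counts in PRC1CKO cells (log2 fold change 5.44) and from 36.5 to 572.0 in PRC1CPM cells (3.91). Barhl2, a homeobox gene of the dorsal neural tube and retina, rose by 3.05 and 2.60 on the log2 scale. Eomes, a marker of cortical intermediate progenitors that is also a mesendoderm gene, rose by 1.57 and 1.31. Dll1, the Notch ligand switched on by neurogenins, moved the other way: it fell by 1.17 in PRC1CKO cells (limma adjusted p = 0.00133) and by 1.43 in PRC1CPM cells (adjusted p = 0.000138). With no filter neither fall of Dll1 passed the test (adjusted p = 0.101 and 0.062).

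Neuronal differentiation markers were mixed. Of 15 genes 12 were tested, and 3 were called higher and 4 lower in PRC1CKO cells, and 3 higher and 1 lower in PRC1CPM cells. Of all tested genes 16.5% were called higher and 3.09% lower in PRC1CKO cells, and 13.1% and 1.4% in PRC1CPM cells. The 3 higher calls were Rbfox3, Map2 and Nefm in both lines. Rbfox3, which encodes the neuronal marker NeuN, rose by 1.39 and 0.90 on the log2 scale in PRC1CKO and PRC1CPM cells. Map2 and Nefm, cytoskeletal genes, rose by 0.79 and 1.28 in PRC1CKO and by 0.66 and 1.21 in PRC1CPM cells. Snap25, a synaptic vesicle fusion gene, fell by 1.99 in PRC1CKO and by 1.35 in PRC1CPM cells. Ina, a neurofilament gene, fell by 1.24 in PRC1CKO cells and did not pass the test in PRC1CPM cells (-0.59). Tubb3 and Stmn2, genes of microtubules named here after their values were seen, completed the 4 lower calls in PRC1CKO cells and fell by 0.71 and 0.59 (limma adjusted p = 0.037 and 0.0419). The Tubb3 call was lost without untreated replicate 1 or 3 (0.12 and 0.0522), without any 1 of the OHT-treated replicates (0.0679 to 0.188) and without untreated PRC1CPM replicate 3 (0.0504). The Stmn2 call was lost without untreated replicate 1 or 3 (0.189 and 0.0638) or OHT-treated replicate 1 or 2 (0.0792 and 0.243), with DESeq2 (0.0561), with no filter (0.172) and with a pseudocount of 0.1 (0.0545). The median log2 fold changes were 0.20 and 0.17. Of the higher calls in PRC1CKO cells, those of Map2 and Nefm rested on single libraries and were lost without OHT-treated replicate 1 (adjusted p = 0.0525 and 0.105) or untreated replicate 3 (0.0942 and 0.348). In PRC1CPM cells all 3 higher calls rested on single libraries. That of Rbfox3 was lost without OHT-treated replicate 1 or untreated replicate 3 (0.131 and 0.0842), and that of Snap25, the lower call, without OHT-treated replicate 2 (0.0796). That of Map2 was lost without OHT-treated replicate 1 (0.292), without untreated replicate 2 or 3 (0.0676 and 0.333), without any 1 of the OHT-treated PRC1CKO replicates (0.0541 to 0.0598), with the PRC1CPM libraries fitted alone (0.0774), with no filter (0.133), with a pseudocount of 0.1 (0.055) and with TMM, where its log2 fold change was 0.55. That of Nefm was lost without OHT-treated replicate 1 or 3 (0.193 and 0.0735), without untreated replicate 1 or 2 (0.0517 and 0.0696), with no filter (0.246) and with a pseudocount of 0.1 (0.0551). With no filter Map2 and Nefm lost their PRC1CKO calls (0.0533 and 0.177), Nefm also did so with DESeq2 (0.068), and Map2 without the gDNA-seq correction (0.0701). Ina passed in PRC1CPM cells with TMM (0.049) and with the replicate number as a block (0.00466).

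Genes of the lineages that the Olig factors and Neurog3 serve were also measured. Of 12 oligodendrocyte lineage genes 11 were tested, with 6 called higher and 1 lower in PRC1CKO cells and 7 higher in PRC1CPM cells (medians 1.25 and 0.99). Nkx2-2, a partner of Olig2 in the ventral neural tube, went from 0.993 to 20.4 normalised counts in PRC1CKO cells (log2 fold change 3.67). Pdgfra, the receptor that marks oligodendrocyte precursors and also primitive endoderm, rose by 1.74, and Mbp, a myelin gene, rose by 1.25. Mag, another myelin gene, fell by 1.36 (limma adjusted p = 0.0467), a call that was lost with edgeR (adjusted p = 0.079), with DESeq2 (0.0592) and, at its highest, without OHT-treated replicate 2 (0.39). Of 13 endocrine pancreas genes 8 were tested and 6 were called higher in each line, none lower (medians 2.10 and 1.52). Nkx6-1 and Isl1, homeobox regulators shared with the neural tube, rose by 4.26 and 3.05 in PRC1CKO cells, while the hormone genes Gcg and Ins1 were at 0 in all 12 libraries.

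**Figure D4:**
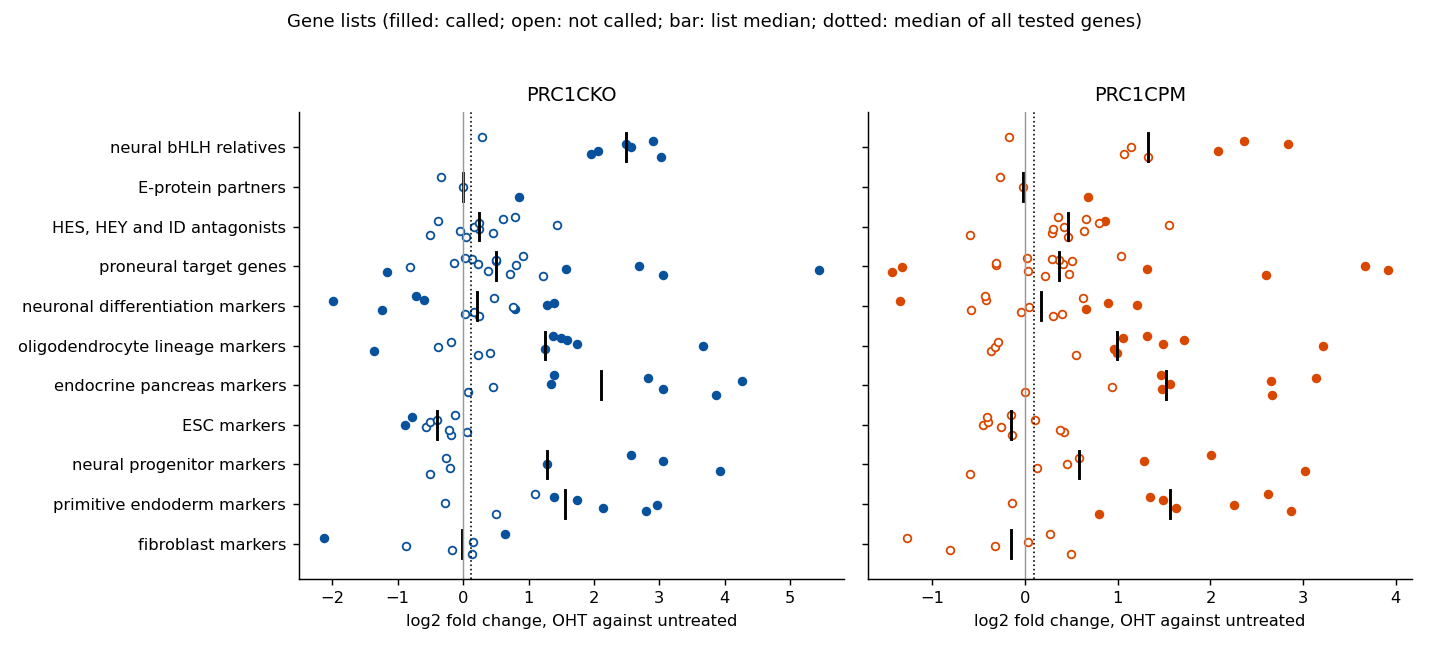
Log2 fold change after OHT treatment of the tested genes of 11 lists, with PRC1CKO on the left and PRC1CPM on the right. Each point is a gene, filled where called, and the bar is the list median. Dotted lines mark the medians of all tested genes, 0.12 and 0.10.

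The libraries were checked against the labelled cell type and for other cells. Of 10 ESC markers 9 were in the table and tested, and their summed level was 80477 ± 17634 (SD, n = 3) normalised counts in untreated and 62077 ± 5031 in OHT-treated PRC1CKO cells, and 69128 ± 12283 and 64391 ± 18395 in PRC1CPM cells. Tdgf1 was the most abundant and no marker was at 0. Sox2 and Utf1 fell by 0.89 and 0.79 on the log2 scale in PRC1CKO cells and did not pass the test in PRC1CPM cells (-0.45 and -0.41). In bulk RNA, fewer cells of a type and less RNA per cell cannot be told apart.

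Markers of other cell types were measured in the same libraries, and those of neural progenitors and primitive endoderm were called higher in part. Of 8 neural progenitor markers 7 were tested, with 4 called higher in PRC1CKO and 3 in PRC1CPM cells, none lower. Lhx2, Pax6 and Sox3, neuroectoderm transcription factors, rose by 3.92, 3.06 and 2.57 in PRC1CKO cells. Nes was the fourth called there, and Sox1, Hes5 and Msi1, which were not called, had log2 fold changes of -0.26, -0.51 and -0.20. The summed level of this list went from 1740 ± 553 (SD, n = 3) to 2924 ± 132 normalised counts in PRC1CKO and from 1947 ± 219 to 2782 ± 686 in PRC1CPM cells, with Nes or Msi1 the most abundant and no marker at 0.

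All 8 primitive endoderm markers were tested, with 5 called higher in PRC1CKO and 7 in PRC1CPM cells and none lower. Gata6 and Gata4, which specify that lineage, rose by 2.96 and 2.14 in PRC1CKO cells. The summed level was 6409 ± 2472 and 7820 ± 1371 in PRC1CKO cells and 5585 ± 763 and 6441 ± 1621 in PRC1CPM cells, Lama1 was the most abundant, and no marker was at 0. Of 8 fibroblast markers 6 were tested, with Thy1 called higher and Postn lower in PRC1CKO cells and none called in PRC1CPM cells, and medians of -0.01 and -0.15. The Postn call was lost without untreated replicate 1 or OHT-treated replicate 3 (adjusted p = 0.172 and 0.262), and the Thy1 call on leaving out any 1 of 7 libraries (0.0545 to 0.164), with TMM, where its log2 fold change was 0.53, and without the gDNA-seq correction (0.233). With no filter Postn also lost its call (0.204). Their summed level was 6794 ± 2786 and 7123 ± 607 in PRC1CKO and 11128 ± 7118 and 12014 ± 6238 in PRC1CPM cells, with Fbln1 or Col1a1 the most abundant and Lum at 0 in all 3 untreated PRC1CKO and all 3 OHT-treated PRC1CPM libraries. The part of these cell types in the rise of the bHLH genes was not tested.

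The gene-body counts of the genes targeted in the 2 lines do not check the labels. Ring1, which encodes RING1A and is changed in both lines before treatment, had 227.5 ± 76.3 (SD, n = 3) normalised counts in untreated PRC1CKO cells, labelled Ring1a-/-, and 161.9 ± 32.2 in untreated PRC1CPM cells. After OHT treatment it had 253.5 ± 26.4 and 140.1 ± 25.8, a log2 difference (PRC1CPM over PRC1CKO) of -0.86 that did not pass the test (limma adjusted p = 0.156). Its level was thus not lower in the line labelled as the knockout. By the study's methods the deletion covers the first exons of the gene, and reads on the rest of the gene body are counted here. Rnf2, which encodes RING1B, had log2 fold changes of 0.03 and -0.17 after OHT treatment, neither of which passed the test. Its count covers the whole gene body, whereas OHT acts on 1 exon of Rnf2, so it does not read the deletion or the exchange of that exon.

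Genes beside the 9 were examined for shared changes. The nearest genes of the table gave 17 genes analysed here, of which 15 were tested and 3 were called higher in each line, none lower. Of all tested genes 16.5% were called higher in PRC1CKO and 13.1% in PRC1CPM cells, so this count is near the share of all genes. Of the 17, 2 are Olig1 and Olig2 themselves, and the 3 called in each line were Cxcl14, Alpk1 and Olig2, itself a member. Cxcl14, a chemokine gene 36.5 kb from Neurog1, rose by 2.20 ± 0.27 (SE) on the log2 scale in PRC1CKO and by 1.71 in PRC1CPM cells. Alpk1, a kinase gene 34.7 kb from Neurog2, rose by 2.01 ± 0.38 and 1.19, although its PRC1CPM call was lost without OHT-treated replicate 1 or untreated replicate 3 (limma adjusted p = 0.184 and 0.0665) or with no filter (0.116). The neighbours of Neurog3, Neurod1, Neurod2 and Olig3 were not called.

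**Figure D5:**
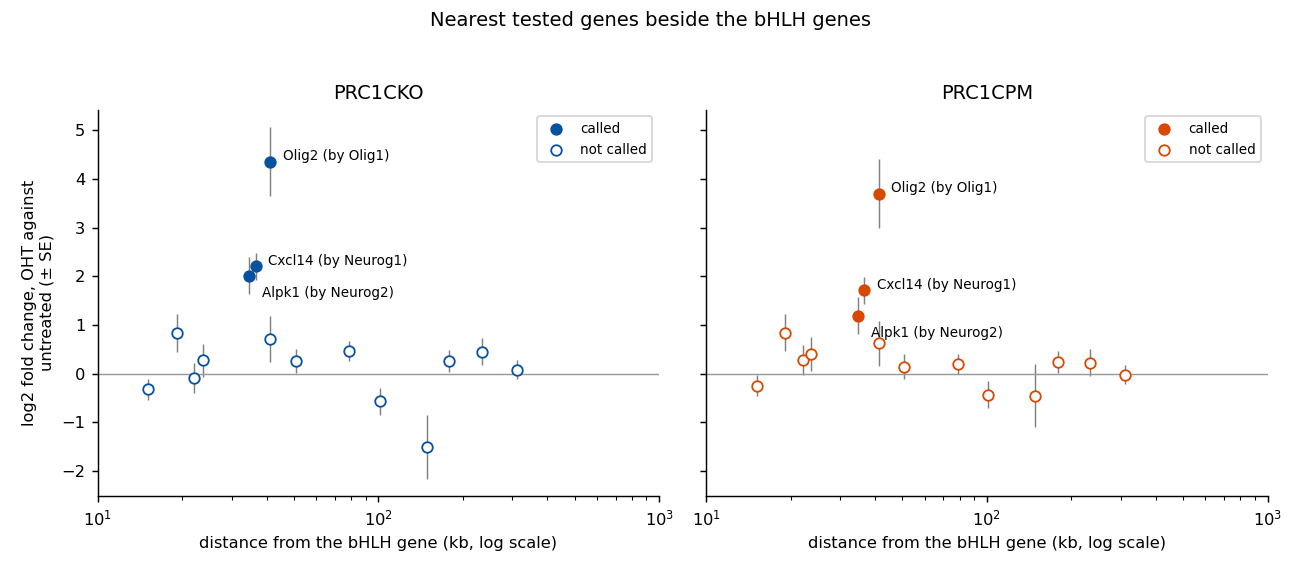
Log2 fold change after OHT treatment of 15 tested neighbours against their distance from the bHLH gene in kb (log scale), with PRC1CKO on the left and PRC1CPM on the right. Bars are SEs and filled points were called. The called neighbours lie between 34.7 and 41.1 kb away.

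The profiles most like the mean of the 8 tested genes, each scaled to its own mean and SD over the 12 libraries, were those of Rusc1, Dgat2, Nrp1, AU015836, Eomes, E2f6, Dram1, Strip2, Tex15 and Ngef. Pearson's r was 0.967 to 0.984 over 12 libraries, which share 4 conditions and the same size factors, and all 10 were called higher in both lines. For single genes the most alike were Bmi1 for Neurog1 (r = 0.958), Aqp5 for Neurog2 (0.948), Enpp5 for Neurog3 (0.960), Tpm4 for Neurod1 (0.951), Cdc5l for Atoh1 (0.976), Wdr63 for Olig1 (0.904), Kcna3 for Olig2 (0.977) and Mreg for Olig3 (0.937). Each was the highest over all tested genes, and these values are a description.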

How the data were processed

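The processed data of 12 cRNA-seq libraries were used, and the matched gDNA-seq libraries were not analysed here beyond their part in the size factors. The authors aligned reads to joined mm10 and dm6 genomes with Bowtie2 and STAR, removed PCR duplicates and counted reads over 20633 gene bodies. The deposited signal is that count divided by a size factor from the Drosophila reads, corrected with gDNA-seq. The authors also deposited log2 fold changes and adjusted p-values of their DESeq2 comparisons and a list of partially derepressed genes, which were not used.

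The planned test on these normalised values was kept, with count tests as alternatives. All values (100%) were whole multiples of 1 read within 0.02 of a read. The 16940 genes that reached 10 reads in 3 or more libraries were fitted with limma 3.58.1 in R 4.3.3 on log2(value + 1), with a mean for each condition, a trend of variance on mean and adjustment by Benjamini-Hochberg. On the recovered reads edgeR 4.0.16 called 3251 and DESeq2 1.42.0 called 3317 genes in PRC1CKO cells after OHT treatment. The fit was checked on simulated reads with known changes, that is, tested on simulated data. Counting intervals are 95% exact (Clopper-Pearson) intervals of the share of halved reads in the treated group.

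The members and the gene lists were chosen with earlier results of these data known. Named genes were the 9 members, from each list the 3 called higher and 2 called lower with the smallest adjusted p in PRC1CKO (or else in PRC1CPM) cells, the E-protein genes, called neighbours, Ring1 and Rnf2, the ESC markers, and the 10 genes most like the mean profile with the most alike gene for each member. Genes absent from the table by symbol (Gap43, Ncam1 and Dppa5a) were not analysed here, and some genes that the rule names are not reported here.

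Whether replicate numbers pair the libraries was checked by correlating deviations from condition means. Libraries with the same number had correlations of 0.0988 to 0.438 and those with different numbers a mean of -0.10. The 2 means are not independent, because the deviations are taken from condition means. All same-numbered pairs except replicate 2 of untreated and treated PRC1CKO cells were above 0.1. Every same-numbered pair lay above every pair with different numbers, whose highest correlation was 0.028. The numbers thus pair the libraries to some degree in both lines. The main fits have no term for this, and fits with the block are given as alternatives. The alternatives were DESeq2, edgeR, TMM, the spike-in without gDNA-seq correction, no filter, a pseudocount of 0.1, the replicate block with and without TMM, stricter thresholds, each line alone and leaving out each library. Added after the data were seen was edgeR on halved reads. Another table row for a symbol could not be tried, since each symbol has 1.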

Additional observations from a re-analysis of the deposited data

How the results depend on the processing

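The calls of Olig2 and Atoh1 in both lines and of Neurog1 in PRC1CKO cells were kept in all 24 alternatives. Leaving out 1 library at a time gave 3 to 4 members called higher in PRC1CKO and 2 to 4 in PRC1CPM cells, and 0 to 1 called lower between the untreated lines. At an adjusted p under 0.01 the count in PRC1CPM cells was 2. Between the untreated lines it was 1, Olig3, with TMM, no filter, a pseudocount of 0.1, the replicate block and the replicate block with TMM. The replicate block, which serves as a pairing check, changed no other member's call. The levels of the 9 genes under TMM stayed within 1 SD.

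Among effects that never passed the test, Neurog3 in PRC1CPM cells had log2 fold changes of -0.22 with DESeq2, -0.21 with edgeR, -0.0775 with TMM and with the replicate block with TMM, and -0.19 with edgeR on halved reads, and -0.65 to 0.68 on leaving out 1 library. On leaving out 1 library, Neurod1 in PRC1CKO cells ranged from -0.070 to 0.75. Tcf3 ranged from -0.13 to 0.17 in PRC1CKO and from -0.17 to 0.14 in PRC1CPM cells, where without the gDNA-seq correction Tcf3 was at 0.28 and Tcf4 at 0.027. Of 15 differences between lines or interactions of the members not given by name, 10 changed sign in some alternative and none was called. The causes were not tested. Of 59 calls of 37 list or neighbour genes, 37 were kept under all alternatives other than stricter thresholds.

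Over all tested genes the count in PRC1CPM cells was 3703 without the gDNA-seq correction against 2463. Calls between treated lines ranged from 73 with no filter to 1363 with the replicate block against 249, between untreated lines from 132 to 1884 against 455, and interactions from 1 to 324 against 4. Of the calls between treated lines 85.1% were higher in PRC1CPM cells, against 66.8% with TMM and 95.6% without the gDNA-seq correction, and between untreated lines 82.2%, 71.0% and 46.4%. Leaving out the gDNA-seq correction put the median over all tested genes at -0.0285 in PRC1CKO and 0.398 in PRC1CPM cells. Depth limits the genes with under 10 reads in a condition, whose fold changes carry wide counting intervals and depend on the pseudocount.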
